A study of Mus musculus with 14 samples.

Results

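The collagen chains are the 44 genes of the deposited expression table whose symbol has the form used for collagen alpha chains, that is, Col, a number, the letter a and a number. The table holds 24016 transcripts, 1 per gene. Of the 44 members, 30 were expressed, meaning that the 8 RNA libraries averaged 1 or more, as were 14312 of all transcripts. Genes whose symbols only begin alike, such as Colq, Colec12 and Colgalt2, were not counted. The members fall into 11 fibrillar chains, 6 basement membrane chains, 9 FACIT chains (fibril-associated collagens with interrupted triple helices) and 18 others. The coding sequences of 43 of the 44 members were found by symbol in the GENCODE annotation of mm9, and each encodes an uninterrupted run of at least 28 Gly-X-Y triplets, the repeat that defines a collagen. The longest run was 216 to 344 triplets in the fibrillar chains and 39 to 66 in the basement membrane chains.

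Collagen alpha chains wind in trimers into a triple helix, for which glycine has to recur at the same place in every triplet. In muscle, fibrillar types I, III and V form the fibres of the connective tissue around myofibres, type IV forms the sheet of the basement membrane that wraps each myofibre, and type VI forms beaded filaments that join both. Types XIII and XXV span the cell membrane and are known for roles where motor nerves contact muscle.

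The RNA came from C2C12 cells, an established mouse myoblast line bought from ATCC, which fuse into myotubes when the growth medium is replaced by differentiation medium with horse serum. All cells were transfected, with control siRNA (siCtrl) or with a SMARTpool of siRNAs against Klf5 (siKlf5, delivered with RNAiMAX), and harvested on days 0, 1, 2 and 3 of differentiation. Since 1 library was made per siRNA and day, no condition has a replicate, and knockdown is transient and partial in this single line. The series also has 6 ChIP-seq samples, not analysed here.

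Klf5 was lower in the siKlf5 library on every day. Its value was 223.8, 381.1, 614.4 and 933.1 FPKM in siCtrl cells on days 0, 1, 2 and 3, and 35.1, 159.6, 192.1 and 211.4 in siKlf5 cells. In the fit described below it was lower by -1.94 (SE 0.20, limma adjusted p 0.024). The libraries held 7850497 to 20301506 reads on transcripts. FPKM was deposited with a matrix total of 10000000 per library, which makes it larger than FPKM in the usual sense, and it is a level per length, so that levels of different chains can be compared. Both strands were counted, so antisense reads cannot be told apart. According to the labels and headers, reads beyond 3 at 1 position had been dropped. Col3a1 reached 6.43 reads per exon base in the deepest library, and 1 transcript reached 34.2 in siKlf5 cells on day 0. Both are more than 3 reads at each position of both strands would give, so how the limit acted is not known. The part of that limit in the levels was not tested. In bulk RNA, fewer cells of a type and less RNA per cell cannot be told apart.

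Differences between libraries are given as log2 of FPKM plus a pseudocount of 0.1, which understates changes of low values, with a 95% exact binomial interval from reads divided by 6 that covers counting error only. A limma fit over all 8 libraries with siRNA and day as terms supplied the tests. In it the 4 days serve as repeats of the siRNA difference, and the siCtrl and siKlf5 libraries of a day serve as repeats of that day. Its spread thus mixes counting error, differences between libraries and any interaction of siRNA and day. Adjusted p-values are Benjamini-Hochberg values over the 14312 expressed transcripts, and a transcript is called when its adjusted p lies under 0.05.

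Collagen chains took up a larger share of the reads on days 1, 2 and 3 than on day 0 in both siRNAs. In siCtrl cells 0.582% of all reads on day 0 lay on the 44 members (95% interval 0.571 to 0.592), and 0.774%, 0.757% and 0.825% did on days 1, 2 and 3. In siKlf5 cells the share was 0.573% on day 0 (0.563 to 0.584), then 0.894%, 0.933% and 0.884%. On days 1, 2 and 3 the share was thus higher in siKlf5 than in siCtrl cells, and the day 3 intervals, 0.813 to 0.837 and 0.870 to 0.898, do not overlap. With the 4 days as repeats, the share was higher in siKlf5 cells by 0.0867 percentage points on average (SD 0.0795, higher on 3 of 4 days, 2-sided exact permutation test within days, p = 0.25, where the smallest p that 4 days allow is 0.125). That test was chosen after the values were seen. The siCtrl library of day 2 was the deepest, with 20301506 reads against 11808641 in siKlf5. A limit of 3 reads at 1 position would drop more reads where a transcript is abundant and the library is deep. The part of that limit in the day 2 difference between siRNAs was not tested. Fibrillar chains made up 63.3% of the collagen reads in siCtrl cells and 62.4% in siKlf5 cells on day 0, and 73.7% and 72.0% on day 3. Basement membrane chains made up 17.6% and 19.5% on day 0, and 8.56% and 11.3% on day 3.

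**Figure D1:**
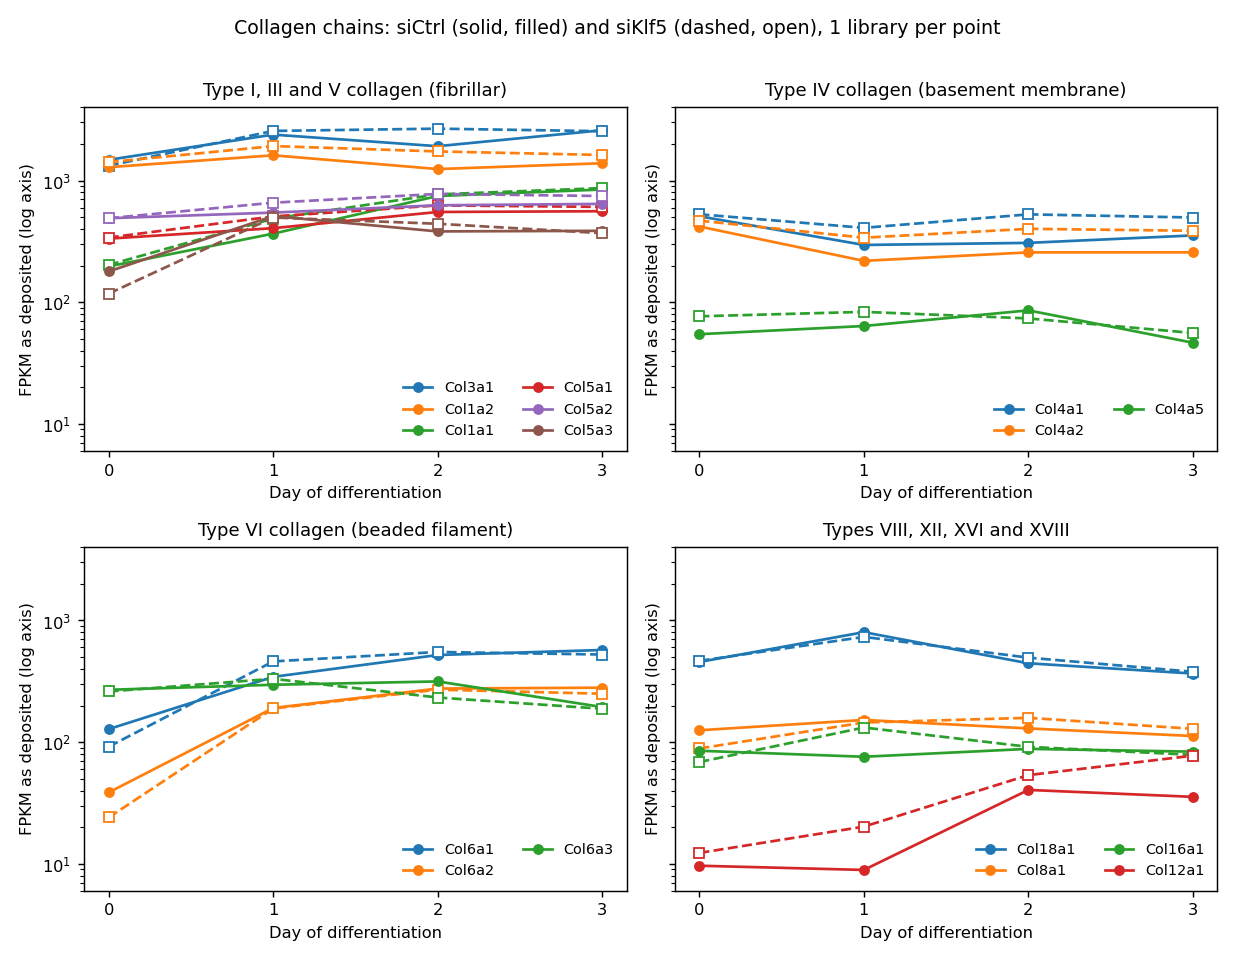
FPKM as deposited (log axis) against the day of differentiation for the 15 members with a mean of at least 50 and for Col12a1, in 4 panels by collagen type. Filled points with solid lines are siCtrl and open points with dashed lines are siKlf5, 1 library each. Col1a1, Col6a1 and Col6a2 climb steeply from day 0 in both siRNAs, whereas Col4a1 and Col4a2 drop from day 0 to day 1 and lie higher in siKlf5 than in siCtrl cells on each day.

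On day 3 against day 0 the limma fit called 9 of the 30 expressed members higher, among which were 5 fibrillar chains and 2 chains of type VI. Across all transcripts 12.8% were called higher. It called 2 members lower, Col4a2 and Col6a3, and 17.6% of all transcripts lower. On day 1 against day 0 the fit called 7 members higher, where 6.82% of all transcripts were, and 2 lower, where 9.93% were. On day 2 it called 8 members higher beside 11.5% of all transcripts, and 1 lower, Col4a2, beside 11.6%. These 3 comparisons share the day 0 libraries. The median log2 difference of the 30 members between day 3 and day 0 was 0.66 in siCtrl and 0.74 in siKlf5 cells, whereas that of all expressed transcripts was -0.07 and -0.08.

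Col1a1 (NM_007742, chromosome 11 of mm9, 94797584 to 94813170, plus strand), the alpha 1 chain of type I collagen, had the steepest course among the fibrillar chains that were called. In siCtrl cells its level was 197, 366, 746 and 844 FPKM on days 0, 1, 2 and 3, and in siKlf5 cells it was 203, 486, 769.8 and 867. Both day 0 libraries were below all later ones. The siKlf5 library was the higher of the pair on every day, within counting error on days 0, 2 and 3. Col1a1 rose by 2.10 on the log2 scale from day 0 to day 3 (SE 0.12, adjusted p 2.13e-05 in the limma fit).

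Col1a2, its partner in type I collagen, was at 1287, 1613, 1243 and 1387 FPKM in siCtrl cells and at 1417, 1920.2, 1735 and 1622 in siKlf5 cells. Its day 3 difference was 0.15 (SE 0.12), which the fit did not call (adjusted p 0.38). The siKlf5 library was the higher on each day, by 1.10 to 1.40 times. The FPKM ratio of Col1a1 to Col1a2 was 0.153 (95% interval 0.135 to 0.173) on day 0 and 0.608 (0.569 to 0.651) on day 3 in siCtrl cells. In siKlf5 cells it was 0.143 (0.126 to 0.162) and 0.534 (0.498 to 0.573).

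Col3a1 (NM_009930, chromosome 1, 45368383 to 45406551, plus strand), the chain of type III collagen, had the highest mean level of all members. It was at 1481, 2385, 1916 and 2590.4 FPKM in siCtrl cells and at 1324, 2558, 2669 and 2544 in siKlf5 cells, and its day 0 values were the lowest of each series. Col3a1 rose by 0.87 from day 0 to day 3 (SE 0.16, adjusted p 0.0053). Over 7 other settings of the fit its adjusted p was 0.0040 to 0.12, and it passed 0.05 with no filter on low values and, at 0.052, without a trend of the spread with level. The ratio of Col3a1 to Col1a1 was 7.52 in siCtrl and 6.53 in siKlf5 cells on day 0, and 3.07 and 2.94 on day 3.

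The 3 chains of type V collagen, which nucleates and thins type I fibrils, all rose. Col5a3 was at 179, 510.2, 382 and 386 FPKM in siCtrl cells and at 118, 497, 441 and 369 in siKlf5 cells, so that its peak lay on day 1 in both. It rose by 1.38 on day 3 (SE 0.18, adjusted p 0.0010), a call that was lost under 1 of 7 other settings, no filter on low values (adjusted p 0.00067 to 0.052 over the 7). Col5a1 was at 333, 406, 552 and 559.5 FPKM in siCtrl and at 340.1, 507, 625 and 607 in siKlf5 cells, with a rise of 0.79 (SE 0.11, adjusted p 0.0013). Every later library of Col5a1 stood above both of its day 0 libraries. Col5a2 was at 490.1, 545, 626 and 643 FPKM in siCtrl and at 490.2, 658, 776 and 746 in siKlf5 cells, with the smallest rise of the called fibrillar chains, 0.50 (SE 0.11, adjusted p 0.012). Over the same settings its adjusted p was 0.0072 to 0.071, above 0.05 without the trend and with no filter. The ratio of Col5a1 to Col5a2 stayed between 0.679 and 0.881 over the 8 libraries.

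Type VI collagen, whose filaments are assembled from Col6a1, Col6a2 and a Col6a3-like chain, had members called in opposite directions. Col6a2 (NM_146007, chromosome 10, 76058501 to 76086149, minus strand) was at 38.6, 191, 276 and 280.2 FPKM in siCtrl cells and at 24.0, 189, 270.1 and 249.9 in siKlf5 cells. It rose by 3.11 on day 3 (SE 0.18, adjusted p 2.05e-05). Col6a1, its neighbour on the same chromosome, was at 128, 344, 520.0 and 572 FPKM in siCtrl and at 91.9, 461, 551 and 525 in siKlf5 cells. It rose by 2.34 (SE 0.19, adjusted p 0.00011), and for both genes no later library came down to the range of day 0.

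Col6a3 was at 269, 296, 315 and 194 FPKM in siCtrl cells and at 261, 331.5, 233 and 188 in siKlf5 cells, with the lowest value of each series on day 3. The fit called it lower on day 3, by -0.47 (SE 0.15, adjusted p 0.045). That call was lost under 5 of 7 other settings, among them both other scalings (adjusted p 0.039 to 0.21 over the 7). The ratio of Col6a3 to Col6a2 was 6.97 (95% interval 5.19 to 9.58) in siCtrl cells on day 0 and 0.693 (0.607 to 0.793) on day 3. In siKlf5 cells it was 10.9 (7.37 to 16.7) and 0.752 (0.648 to 0.874).

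**Figure D2:**
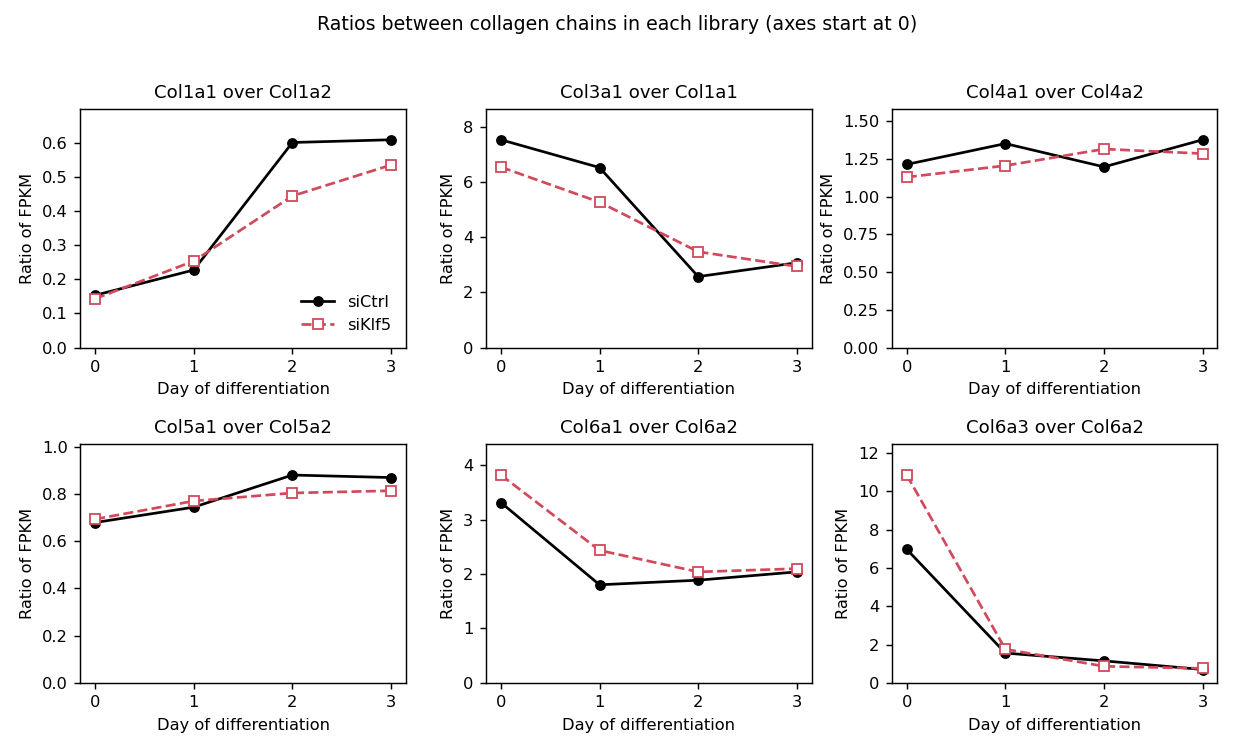
Ratio of FPKM between chains in each library against the day of differentiation, with each vertical axis starting at 0, siCtrl as filled points and siKlf5 as open points. The ratio of Col6a3 to Col6a2 is 6.97 and 10.9 on day 0 and 0.693 and 0.752 on day 3, and that of Col1a1 to Col1a2 is 0.153 and 0.143 and then 0.608 and 0.534, whereas Col4a1 to Col4a2 lies between 1.13 and 1.38.

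Col4a1 and Col4a2 are the chains of the type IV collagen found in nearly all basement membranes. They lie head to head on chromosome 8 of mm9, Col4a1 (NM_009931) from 11198423 to 11312826 on the minus strand and Col4a2 (NM_009932) from 11312829 to 11449287 on the plus strand. The RefSeq promoter windows of the pair, from 250 bases before to 50 bases after the start on GRCm38.p6, share 78 bases. They are printed because both genes start in them and their levels were compared over the libraries. Col4a1 is at chr8:11312777-11313076 (minus strand) and Col4a2 at chr8:11312555-11312854 (plus strand), both 5′ to 3′, and capitals mark CACCC and GGGCGG boxes on either strand, sequences of the kind that Kruppel-like factors are known to bind.
Col4a1: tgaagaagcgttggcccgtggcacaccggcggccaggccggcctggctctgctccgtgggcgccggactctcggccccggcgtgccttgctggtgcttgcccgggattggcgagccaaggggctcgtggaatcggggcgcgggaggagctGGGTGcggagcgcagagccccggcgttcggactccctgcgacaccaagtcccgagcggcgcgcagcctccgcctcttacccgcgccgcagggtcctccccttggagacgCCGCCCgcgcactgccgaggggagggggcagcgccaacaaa
Col4a2: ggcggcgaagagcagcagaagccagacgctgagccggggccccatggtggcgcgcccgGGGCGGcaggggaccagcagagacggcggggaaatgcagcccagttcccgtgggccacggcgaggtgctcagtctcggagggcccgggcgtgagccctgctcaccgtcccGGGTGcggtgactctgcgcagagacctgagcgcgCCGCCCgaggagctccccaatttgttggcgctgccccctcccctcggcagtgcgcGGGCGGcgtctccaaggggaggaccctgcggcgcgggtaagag

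Col4a1 was at 508, 296, 307 and 354 FPKM in siCtrl cells and at 528, 409, 527 and 497 in siKlf5 cells. Col4a2 was at 419, 218.7, 256.8 and 257.0 FPKM in siCtrl and at 468, 339, 401 and 387 in siKlf5 cells. In siCtrl cells all later libraries of both genes were below day 0, and on each day the siKlf5 library was above the siCtrl library. For Col4a1 the day 0 difference between siRNAs was within counting error. The fit called Col4a2 lower on day 1 (-0.70, SE 0.14, adjusted p 0.013), on day 2 and on day 3 (-0.49, SE 0.14, adjusted p 0.032). The day 3 call was lost under 4 of 7 other settings, among them both other scalings (adjusted p 0.027 to 0.17 over the 7). Col4a1 was called lower on day 1 (-0.58, SE 0.16, adjusted p 0.045) but not on day 3 (-0.31, adjusted p 0.19). Over the 8 libraries the ratio of Col4a1 to Col4a2 lay between 1.13 and 1.38.

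Col4a5, a type IV chain that is best known from the filter of the kidney, was at 54.6, 63.7, 85.7 and 46.5 FPKM in siCtrl and at 76.6, 83.3, 73.6 and 55.9 in siKlf5 cells. Its siCtrl and siKlf5 ranges overlapped, and the fit called it on no day. Col4a6 had a mean of 1.37, and Col4a3 and Col4a4 were below a mean of 1.

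Among the other chains with a mean of at least 50, Col18a1, the core protein of a basement membrane proteoglycan and source of endostatin, was at 456, 801, 445 and 366 FPKM in siCtrl and at 466, 733, 495 and 379 in siKlf5 cells. Col18a1 was higher on day 1 than on any other day in both series, and the fit called day 1 against day 0 (0.73, SE 0.11, adjusted p 0.0036) and not day 3 (-0.31, adjusted p 0.062). Col8a1, a network-forming chain, was at 125, 152, 129.6 and 112 FPKM in siCtrl and at 88.7, 145, 158 and 129 in siKlf5 cells. Col16a1, a FACIT chain, was at 84.9, 75.8, 88.0 and 83.5 FPKM in siCtrl and at 68.6, 132, 91.5 and 78.6 in siKlf5 cells. Neither was called on any day, and their siCtrl and siKlf5 ranges overlapped.

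Col12a1, a FACIT chain that decorates type I fibrils, had a mean of 32.2 and was the FACIT chain that the fit called on day 3. It was at 9.64, 8.90, 40.5 and 35.5 FPKM in siCtrl and at 12.3, 20.2, 53.6 and 77.4 in siKlf5 cells. It rose by 2.26 on day 3 (SE 0.36, adjusted p 0.0026), and the siKlf5 library was above the siCtrl library on each day, by 2.26 times on day 1 and 2.18 times on day 3. On day 0 the difference between siRNAs was within counting error. Col12a1 was named after its values were seen.

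**Figure D3:**
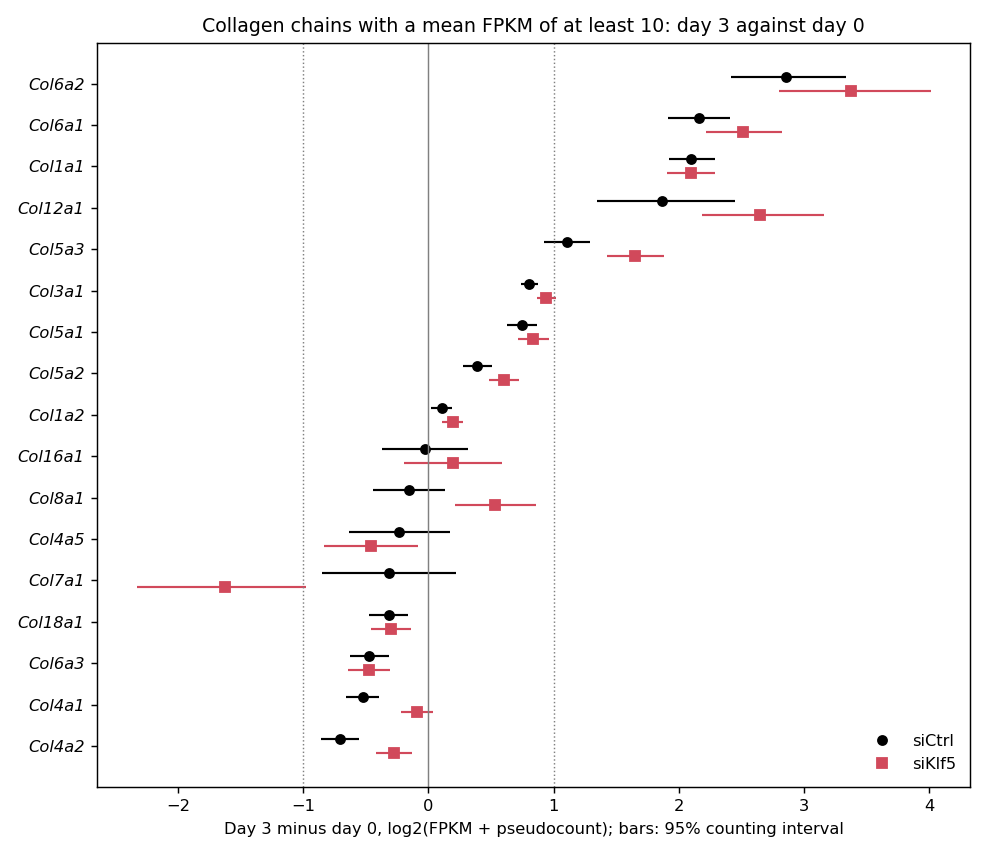
Day 3 minus day 0 on the log2 scale for the 17 members with a mean of at least 10, siCtrl as black circles and siKlf5 as red squares, with bars for the 95% counting interval and dotted lines at 2-fold. Col6a2, Col6a1, Col1a1, Col12a1 and Col5a3 lie past 2-fold in both siRNAs, and Col7a1 lies past 2-fold lower in siKlf5 cells (-1.62) but not in siCtrl cells (-0.31).

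Within each siRNA, day 3 was set against day 0 with no test. In siCtrl cells 11 of the 30 members were more than 2-fold higher (15.5% of all transcripts were) and 0 were more than 2-fold lower (12.7%). In siKlf5 cells 11 were higher (14.9%) and 2 were lower (12.4%), namely Col4a6 and Col7a1. Some of these members rest on few reads. In siKlf5 cells Col13a1 (0 and 9 reads on days 0 and 3) and Col25a1 (3 and 12) stayed under 18 reads. Col10a1, Col11a1 and Col26a1 had 6, 6 and 0 reads there on day 0, and Col4a6 went from 21 to 6. In siCtrl cells Col10a1, Col11a1 and Col25a1 had 0 reads on day 0 and Col13a1 had 6. Col7a1, which builds the anchoring fibrils of skin, was at 22.3 FPKM on day 0 and 18.0 on day 3 in siCtrl cells and at 29.7 and 9.59 in siKlf5 cells, and the fit did not call it on day 3 (adjusted p 0.14).

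The siKlf5 and siCtrl libraries were then compared on each day. On day 0, 7 of the 30 members were lower in siKlf5 cells by more than 1.5-fold and 6 were higher, where 11.1% and 9.22% of all transcripts were. On day 1 these counts were 4 and 7, beside 11.0% and 16.4% of all transcripts. On day 2 they were 4 and 6, beside 13.0% and 7.69%. On day 3, 7 members were lower, beside 12.5% of all transcripts, and 5 were higher, beside 10.7%. Among those of day 3, Col12a1 and Col4a2 (higher) and Col7a1 (lower) had a mean of at least 10. The counts of the 4 days also hold members that passed the mean of 1 only through 1 siRNA. These were Col13a1 and Col25a1 (siCtrl) and Col10a1 and Col11a1 (siKlf5), and their place in the counts is no support for a difference. The median log2 ratio of siKlf5 to siCtrl over the 30 members was 0.03, 0.22, 0.19 and 0.08 on days 0, 1, 2 and 3, and that of all expressed transcripts lay between -0.03 and 0.03.

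Members on the same side on every day were counted as well. Of the 30 members 8 were higher in siKlf5 cells on all 4 days, namely Col1a1, Col1a2, Col5a1, Col5a2, Col4a1, Col4a2, Col12a1 and Col19a1, and 9.05% of all transcripts were. The 2 members with lower values on all 4 days were Col13a1 and Col6a2, beside 9.03% of all transcripts, but Col13a1 had at most 10 reads in either library on days 0 and 1, which supports no direction there. Of the 15 members with a mean of at least 50, 6 (40.0%) were higher on all 4 days, whereas 911 of the 8499 transcripts with such a mean (10.7%) were. All these counts go by sign alone. The day 0 counting intervals of Col1a1, Col5a1, Col5a2, Col4a1, Col12a1 and Col19a1 cross 0, with Col5a2 at 490.2 FPKM in siKlf5 and 490.1 in siCtrl cells. Those of Col1a1 on days 2 and 3 and of Col19a1 on day 1 cross 0 as well. For Col6a2 the interval crosses 0 on every day.

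The siRNA term of the limma fit called 0 of the 30 members. It called 8 transcripts lower (0.0559%) and 1 higher (0.00699%) in the whole table. At an unadjusted p under 0.05 the term had 6 members, Col12a1, Col13a1 (which passed the filter only through siCtrl), Col1a2, Col4a1, Col4a2 and Col5a2, beside 9.60% of all transcripts. The member with the smallest adjusted p was Col4a2, higher in siKlf5 cells by 0.51 (SE 0.10, adjusted p 0.18), and it was above siCtrl on 4 of 4 days, past 1.5-fold on days 1, 2 and 3. Its log2 ratio was 0.16 on day 0 (95% interval 0.02 to 0.30) and 0.59 on day 3 (0.43 to 0.75). Col4a1 was higher by 0.45 (SE 0.11, adjusted p 0.30), and its log2 ratio was largest on day 2, at 0.78 (0.66 to 0.90). None of these differences passed the adjustment.

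**Figure D4:**
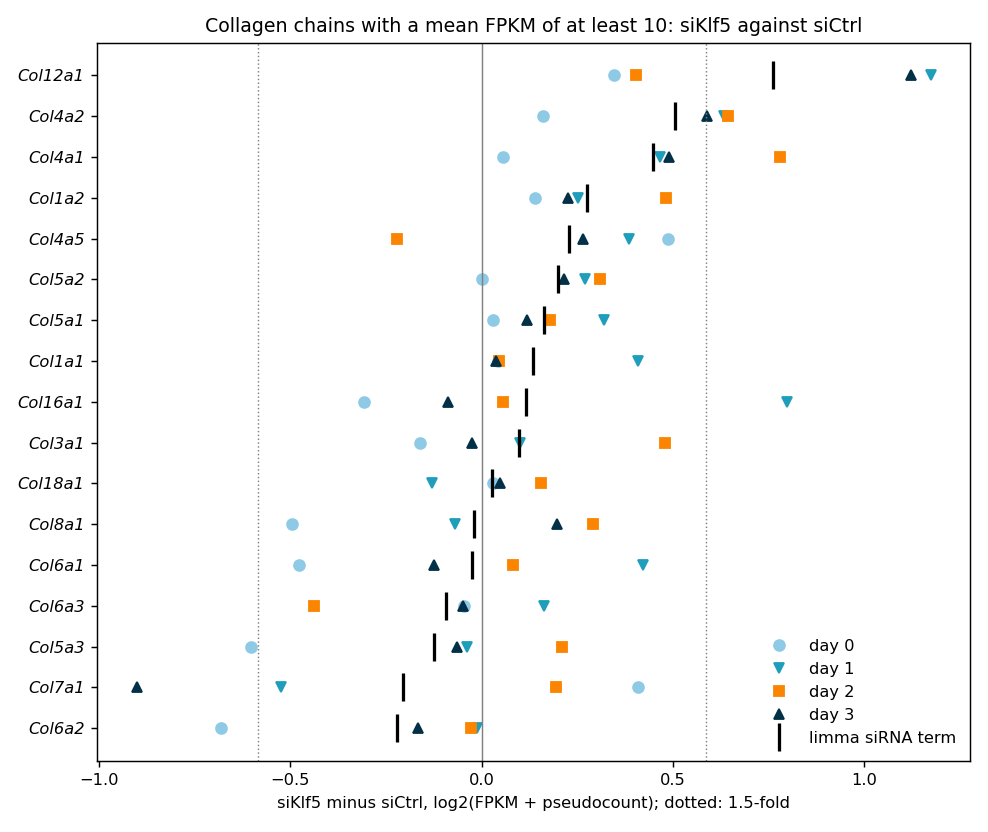
siKlf5 minus siCtrl on the log2 scale for the 17 members with a mean of at least 10, with 1 symbol per day, a black stroke for the limma siRNA term and dotted lines at 1.5-fold. Col12a1, Col4a2, Col4a1, Col1a2, Col5a2, Col5a1 and Col1a1 lie to the right of 0 on all 4 days, Col6a2 lies to the left on all 4, and no siRNA term was called. Counting intervals, which cross 0 for some of these symbols, are not drawn.

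The members furthest below their siCtrl level in siKlf5 cells on day 3 were a pair of transmembrane collagens, Col13a1 and Col25a1. Both had means under 10 and were named after their values were seen. Of the 14312 expressed transcripts, 344 (2.40%) were likewise more than 2-fold higher on day 3 than on day 0 in siCtrl cells and more than 4-fold lower in siKlf5 cells on day 3. At more than 16-fold lower there were 220 (1.54%), and these 2 members were listed among them. Their siKlf5 libraries of day 3 held 9 and 12 reads, under the limit of 18 reads used below. The siCtrl values of day 3 were 10.8 and 11.7 times that limit, so that 16-fold is not resolved. Both members passed the mean of 1 only through siCtrl, and their place in these counts is no support for a difference. Col13a1 (NM_007731) lies on chromosome 10 of mm9 from 61301246 to 61441856 on the minus strand, and Col25a1 (NM_198711) on chromosome 3 from 129883763 to 130302801 on the plus strand. No exon of another gene of the GENCODE annotation overlaps their exons. The RefSeq promoter windows are printed since both genes were highest in siCtrl cells on day 3, Col13a1 at chr10:61979059-61979358 (minus strand) and Col25a1 at chr3:130180595-130180894 (plus strand) of GRCm38.p6, with CACCC and GGGCGG boxes of either strand in capitals.
Col13a1: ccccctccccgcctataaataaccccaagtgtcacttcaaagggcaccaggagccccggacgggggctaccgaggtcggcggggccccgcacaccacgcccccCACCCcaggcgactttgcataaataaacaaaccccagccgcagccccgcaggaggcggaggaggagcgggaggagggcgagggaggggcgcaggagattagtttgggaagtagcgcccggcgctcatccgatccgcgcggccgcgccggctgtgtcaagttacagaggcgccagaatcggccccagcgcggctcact
Col25a1: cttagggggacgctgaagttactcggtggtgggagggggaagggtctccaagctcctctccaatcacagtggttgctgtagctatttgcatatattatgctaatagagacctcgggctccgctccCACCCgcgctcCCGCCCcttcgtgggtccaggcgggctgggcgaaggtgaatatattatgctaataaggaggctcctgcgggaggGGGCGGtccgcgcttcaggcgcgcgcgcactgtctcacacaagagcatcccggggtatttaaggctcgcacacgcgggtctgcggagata

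In siCtrl cells Col13a1 was at 1.07, 2.73, 12.7 and 38.1 FPKM on days 0, 1, 2 and 3, which rest on 6, 10, 122 and 223 reads. In siKlf5 cells it was listed at 0 on days 0, 1 and 2 and at 1.76 FPKM on day 3, from 9 reads. The siCtrl values of days 2 and 3 thus each stood above that of the day before. Order among the siCtrl values of days 0 and 1 and the siKlf5 value of day 3 is not resolved, at 6, 10 and 9 reads. On days 0 and 1 both libraries of Col13a1 were under 18 reads, the limit that a count of 0 allows at 3 units of 6 reads, and no fold is given. On day 2 the siCtrl value of Col13a1 was 3.92 times that limit in the siKlf5 library. This ratio leaves out counting error in siCtrl, and the upper end of the 95% interval of the log2 ratio was -1.54. On day 3 the log2 ratio was -4.36 (95% interval -8.28 to -2.24). Col13a1 passed the mean of 1 only through its siCtrl libraries, so that its siRNA term (adjusted p 0.21, not called) is no support for a difference. The fit called Col13a1 higher on day 3 than on day 0 (4.62, SE 1.42, adjusted p 0.041), a call that was lost under 3 of 7 other settings (adjusted p 0.039 to 0.23 over the 7), and its size is set by the pseudocount. That day term averages the siCtrl course with siKlf5 libraries at or near 0.

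Col25a1 was at 0, 1.04, 3.81 and 17.6 FPKM in siCtrl cells, from 0, 9, 86 and 242 reads, and at 0.250, 0.112, 0.536 and 0.998 FPKM in siKlf5 cells, from 3, 1, 7 and 12 reads. On days 2 and 3 the siCtrl value was above every siKlf5 value. The log2 ratio was -2.62 on day 2 (95% interval -7.59 to -0.26) and -4.01 on day 3 (95% interval -7.23 to -2.19). Neither the siRNA term (-1.81, SE 1.25, adjusted p 0.68) nor the day 3 term (4.56, SE 1.77, adjusted p 0.090) was called. Their sizes are set by the pseudocount, since with a pseudocount of 1 the day 3 term was 2.45 and the day 2 log2 ratio -1.65, and Col25a1 too passed the mean of 1 only through its siCtrl libraries.

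**Figure D5:**
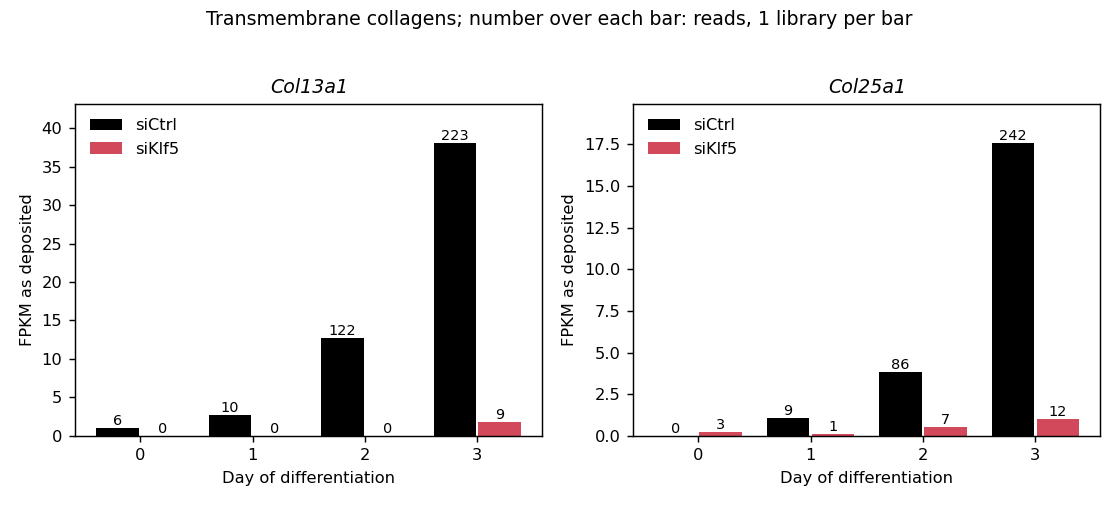
FPKM as deposited for Col13a1 and Col25a1 in each library, siCtrl in black and siKlf5 in red, from an axis that starts at 0, with the number of reads over each bar. The siCtrl bars reach 38.1 and 17.6 FPKM on day 3, while the siKlf5 bars of that day stand at 1.76 and 0.998.

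The other transmembrane chains with a mean of at least 1 had other courses. Col23a1 was between 4.57 and 9.78 FPKM in siCtrl and between 4.56 and 5.19 in siKlf5 cells. Col17a1, the hemidesmosome collagen of skin, was between 5.63 and 18.4 FPKM in siCtrl and between 4.79 and 9.21 in siKlf5 cells. The ranges of both overlapped between siRNAs. The remaining expressed members with a mean under 10, Col11a2, Col14a1, Col27a1, Col24a1, Col26a1, Col19a1, Col4a6, Col10a1 and Col11a1, had at most 205 reads in any library. The 14 members with a mean under 1 include Col2a1, the cartilage collagen, and Col9a1, Col9a2 and Col9a3, its FACIT partners, and Col9a2 was at 0 in all 8 libraries.

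Genes that modify, export, cleave, crosslink or bind collagen were taken as 4 lists of 49 genes, of which 40 were expressed. On day 3 against day 0 the fit called 11 of the 40 higher and 8 lower, beside the 12.8% and 17.6% of all transcripts. Of 18 expressed genes of modification and folding in the endoplasmic reticulum, 2 rose, Leprel2 (a prolyl 3-hydroxylase, by 1.26, adjusted p 0.014) and Fkbp14 (0.86, adjusted p 0.0078), and 3 were lower, P4ha2 (a prolyl 4-hydroxylase subunit, -0.62, adjusted p 0.020), Fkbp10 and Plod3. Serpinh1, the collagen chaperone Hsp47, was between 1218 and 1916 FPKM and was not called. Of 6 expressed export genes, 2 rose, Creb3l2 (0.75) and Sec23a (0.36), and 2 were lower, Sec24d (-0.51) and Creb3l1 (-0.43).

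Of 10 expressed genes of propeptide removal and crosslinking, 3 rose: the procollagen N-proteinases Adamts2 (by 3.05, SE 0.36, adjusted p 0.00066) and Adamts14 (1.63, SE 0.11, adjusted p 5.5e-05), and the crosslinking enzyme Loxl1 (1.82, SE 0.17, adjusted p 0.00019). The list had 2 lower genes, Pcolce2, an enhancer of C-propeptide cleavage (-1.47, SE 0.13, adjusted p 0.00017), and Loxl2 (-0.79, SE 0.13, adjusted p 0.0029). Of 6 expressed receptor genes, 4 rose and 1 was lower. The integrin chain Itga10 rose by 2.74 (SE 0.38, adjusted p 0.0014). Itga11 was called higher (adjusted p 0.0086), with 2 and 0 reads on day 0 and 63 and 127 on day 3 in siCtrl and siKlf5 cells, and no fold is given since its day 0 reads lie under the limit of 18. The discoidin domain receptors differed, with Ddr1 higher by 0.71 (SE 0.10, adjusted p 0.0014) and Ddr2 at -0.62 (SE 0.14, adjusted p 0.011).

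Adamts14 was the 1 gene of these lists that the siRNA term called. It was at 159, 320.3, 489.9 and 510.5 FPKM in siCtrl cells and at 97.1, 185, 244 and 290.2 in siKlf5 cells. It was lower in siKlf5 cells on 4 of 4 days, by -0.83 in the fit (SE 0.08, adjusted p 0.019). Col1a1, Col1a2 and Col3a1, procollagens that such enzymes trim, were not called, and their difference from Adamts14 was not tested. The call was lost when the libraries of any 1 day were left out (adjusted p 0.27 to 0.69), with no filter on low values (0.49), without the trend (0.52) and with no day term, and in each of these fits the difference stayed between -0.77 and -0.87. The loss is not particular to Adamts14. With a day left out, no filter or no trend, the siRNA term called 0 transcripts in the whole table, Klf5 included, and with no day term it called 1.

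Tendon and fibroblast markers were higher on day 3, as were fibrillar chains. Of 8 tendon and fibroblast markers, 6 were expressed and 5 were called higher on day 3 (Scx, Dcn, Dpt, Pi16 and Lum). Their summed level was 455 and 424 FPKM in siCtrl and siKlf5 cells on day 0 and 1552 and 1545 on day 3, and the tendon markers Mkx and Tnmd were at or near 0 (at most 0.917). The near-equal sums hide differences between siRNAs on day 3. Scx was at 771 FPKM in siCtrl and 992 in siKlf5 cells, and Dcn at 675 and 502. The median log2 ratio of the 6 expressed markers was -0.54, with 3 lower and 0 higher in siKlf5 cells past 1.5-fold. The siRNA term called 0 of them. The part of these markers in the rise of Col1a1, Col3a1 and the type V and VI chains was not tested. Of 8 myoblast and myotube markers all were expressed and 5 were called higher on day 3, with a summed level of 4062 and 3555 FPKM on day 0 and 13949 and 13400 on day 3. Of 6 cartilage and bone markers Sox9 was at 145 to 286 FPKM, while Acan, Sp7, Ibsp and Alpl were at most 2.05 and Bglap at most 10.3. Endothelial markers summed to at most 5.36 FPKM, adipocyte markers to at most 3.81, leukocyte markers to at most 24.9, and epithelial markers to at most 56.7 (Cdh1 and Krt14, with Epcam at 0).

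RefSeq promoter windows of the length printed above were found for 35 of the 44 members, 38 windows in all, and were searched on both strands for 4 motifs. The CACCC box was in 29 of the 38 (76.3%) and in 57.5% of all 32851 windows. The GGGCGG box was in 23 (60.5%) and in 35.7% of all. The E-box CANNTG, the letters that MyoD and other basic helix-loop-helix factors read, was in 20 (52.6%) and in 72.3% of all, and the MCAT motif CATTCC in 5 (13.2%) and in 14.7% of all. Matches of different motifs may share bases at their ends. Col13a1 had 1 CACCC box and 0 GGGCGG boxes, Col25a1 had 1 and 2, Col4a1 had 1 and 1, and Col4a2 had 1 and 3, some of them in the bases that both windows share. These counts describe letters in a window and not binding.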

How the data were processed

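RNA-seq libraries of siCtrl and siKlf5 C2C12 cells on 4 days were used, 1 per condition (8 in all). Per the labels and file headers, the authors enriched poly(A) RNA, sequenced both fragment ends, mapped them with STAR (mm9) and used HOMER to count RefSeq exons, without regard to strand, keeping 1 transcript per gene and no more than 3 reads at a position. The deposited FPKM values were scaled to a matrix total of 10000000. From them and the exon lengths the whole reads were recovered (tolerance 0.1 reads). The authors also deposited 8 per-library log2 columns, which were not used here. DESeq2-normalized counts, which the study's methods name, were not used here either. A count test on the recovered reads was not run, since no condition has a replicate.

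The members, classes, lists and tests were chosen with earlier results of these data known. Values in every library are given for members with a mean of at least 50, and for members with a mean of at least 10 that lay past 1.5-fold to the same side between siRNAs on 3 of 4 days or more, or that the siRNA term called. Members outside this rule are said to be so. Of the other lists, the 3 largest changes in each direction among the genes called on day 3 and all genes called by the siRNA term are named, the 3 being taken within each list.

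Intervals are Clopper-Pearson intervals (95%) on reads divided by 6 and, like the limit of 3 such units for a count of 0, cover counting error only. limma 3.58.1 (R 4.3.3) was fitted to log2(FPKM + 0.1), with siRNA and day as factors, a trend of the spread with level and 3 residual degrees of freedom, over transcripts with a mean of at least 1. It was tested before use on simulated data, with 3-fold siRNA differences in transcripts with a mean of at least 50. Counting error was the only noise there, so that the simulation does not cover smaller differences or other spread between libraries. The p-values measure only the spread between these libraries. Python 3.11.15, pandas 2.3.3 and scipy 1.17.1 were used for the rest. Alternatives were other pseudocounts, filters and scalings, no trend, no day term and leaving out each day. Promoters are those of RefSeq on GRCm38.p6, gene positions those of the deposited table (mm9).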

Additional observations from a re-analysis of the deposited data

Results flagged for a closer look

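Members whose day 3 against day 0 difference had opposite signs in the siRNAs, by more than 1.5-fold in each, were looked for among the 30 expressed chains. Col17a1 was lower on day 3 in siCtrl cells (-0.64 on the log2 scale) and higher in siKlf5 cells (0.65), with 46 to 145 reads per library. Col4a6 was higher on day 3 in siCtrl cells (0.70) and lower in siKlf5 cells (-1.63), with 6 to 28 reads per library. With 1 library per condition neither difference was tested.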

How the results depend on the processing

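The siRNA term called 0 members under the 12 other settings of the fit, and at an unadjusted p under 0.05 it had 3 to 7. With no filter, without the trend and with any 1 day left out, it called 0 transcripts in the whole table, Klf5 included. With no day term it called 1. A count of 0 members therefore says nothing about collagen chains under those settings. The day term pairs the siRNAs of a day; without it, 0 members were called and the adjusted p of Adamts14 was 1.00. The 8 members higher in siKlf5 cells on all 4 days stayed within 1.5 times that count under all 6 alternatives. With no filter, 11 members were lower and 8 higher in siKlf5 cells on day 3 past 1.5-fold, and with a mean of at least 5, 4 and 2. With a pseudocount of 1, 3 were higher. Day 3 against day 0 past 2-fold gave 4 lower members in siCtrl and 7 in siKlf5 cells with no filter. With a mean of at least 5 it gave 7 higher in siCtrl, and 6 higher and 1 lower in siKlf5 cells, and with a pseudocount of 1, 1 lower in siKlf5 cells. More or fewer members were tested under those filters. The fit called 5 members higher and 0 lower on day 3 with no filter. It called 1 lower with a pseudocount of 0.01, and 0 lower under upper-quartile scaling, median-ratio scaling and without the trend. The cause was not tested. Of the values of single genes under the alternatives, 746 kept their side, 17 lost a call, 9 moved beyond their counting interval and 0 reversed. With 1 library per condition, members with few reads are limited by depth.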
